A study of Mus musculus with 16 samples.

Results

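The mitochondrially encoded genes are the genes carried by the mitochondrial chromosome (chrM), and they were taken as every row of the deposited tables whose symbol starts with mt-. They comprised 29 of the 23222 genes with reads, namely 13 protein genes, 2 ribosomal RNA genes and 14 of the 22 annotated transfer RNA genes. Their RNA was measured in myofibers (muscle fibre cells) from the extensor digitorum longus, a fast hindlimb muscle, after mononucleated cells had been stripped off. All 16 libraries came from male C57BL/6 mice and formed 4 groups of 4. Old runners were 22 months old with 5 weeks of wheel access to run at will, and old controls were 22 months old and are labelled as controls only. Young runners were 4 months old and had the same 5 weeks, and young controls were 4 months old. The libraries are named as in the tables: O1ex to O4ex for old runners, Oc1 to Oc4 for old controls, Y1ex to Y4ex for young runners, and Yc4, Yc5, Yc7 and Yc8 for young controls. No label says if the 4 libraries of each group were 4 animals, so p-values measure the spread between libraries, which may be technical.

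The mitochondrial genome encodes core subunits of complexes I, III, IV and V of the respiratory chain, together with the ribosomal and transfer RNAs that translate them inside the organelle. Both strands are copied into long precursors that are cut at the transfer RNAs lying between the other genes, and the messenger RNAs then receive short A tails. Skeletal muscle fibres make much of their ATP with these complexes during sustained work, and endurance training is known to raise the mitochondrial content of muscle. In bulk RNA, more mitochondria and more RNA per mitochondrion cannot be told apart, nor can fewer cells of a type and less RNA per cell. Reverse transcription with the SMART-Seq v4 chemistry starts from A tails, so RNAs with short tails or none are read less fully.

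Libraries held 30696736 to 67428801 assigned reads, and 6 markers of fast fibres summed to 81643 to 134684 RPM (reads scaled to the library total) in every library. Among 5 markers of slow fibres, Myh7 was not listed and the others summed to 0 to 8.60 RPM. Markers of fibro-adipogenic progenitors, connective tissue cells between fibres, had reads for 8 of 8 genes, and their sum separated the young groups while the old groups overlapped. The sum was 41.6 to 90.3 RPM in old runners and 5.72 to 46.2 RPM in old controls, and 80.0 to 262 RPM in young runners and 0.316 to 13.97 RPM in young controls. The young groups were also apart for 8 endothelial markers (21.8 to 104 RPM in young runners and 5.47 to 19.8 RPM in young controls) and 6 smooth muscle and pericyte markers (14.9 to 63.9 RPM in young runners and 1.44 to 11.6 RPM in young controls). The other 5 lists of non-fibre cells overlapped at 4 months, and all 8 overlapped at 22 months. The part of these cells in the mitochondrial values was not tested.

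Read levels along the mitochondrial genome fell into a high and a low set. The 9 high members were both ribosomal RNAs and mt-Nd1, mt-Nd2, mt-Co1, mt-Nd4, mt-Nd5, mt-Nd6 and mt-Cytb, and they held 99.79% of all 7318814 mitochondrial reads. Per length, in RPM divided by length in kilobases (RPKM), mt-Nd1, a membrane subunit of complex I (chrM:2751-3707), had the highest level in 16 of 16 libraries, with a median of 1806 RPKM. mt-Co1, the catalytic subunit of complex IV (chrM:5328-6872), had 1437 RPKM and mt-Cytb, the cytochrome of complex III (chrM:14145-15288), 1396 RPKM. The order of these 2 neighbours did not hold across libraries, with mt-Co1 above mt-Cytb in 8 of 16. Next came mt-Rnr2, the 16S ribosomal RNA (chrM:1094-2675), at 639 RPKM, which was below mt-Cytb in 15 of 16 libraries. mt-Nd2 (chrM:3914-4951) had 430.1 RPKM, below mt-Rnr2 in 13 of 16 libraries. mt-Nd4 (chrM:10167-11544) had 391 RPKM, and mt-Nd5 (chrM:11742-13565) 263 RPKM, each below the member before it in 16 of 16 libraries. All 3 encode membrane subunits of complex I. mt-Nd6 (chrM:13552-14070), the protein gene on the minus strand, had 247 RPKM, below mt-Nd5 in 14 of 16 libraries. mt-Rnr1, the 12S ribosomal RNA (chrM:70-1024), had 125 RPKM, below mt-Nd6 in 15 of 16. No strand selection is named for the libraries, and mt-Nd5 and mt-Nd6 overlap by 14 bases, so reads in that overlap and antisense reads cannot be assigned to one of them.

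**Figure D1:**
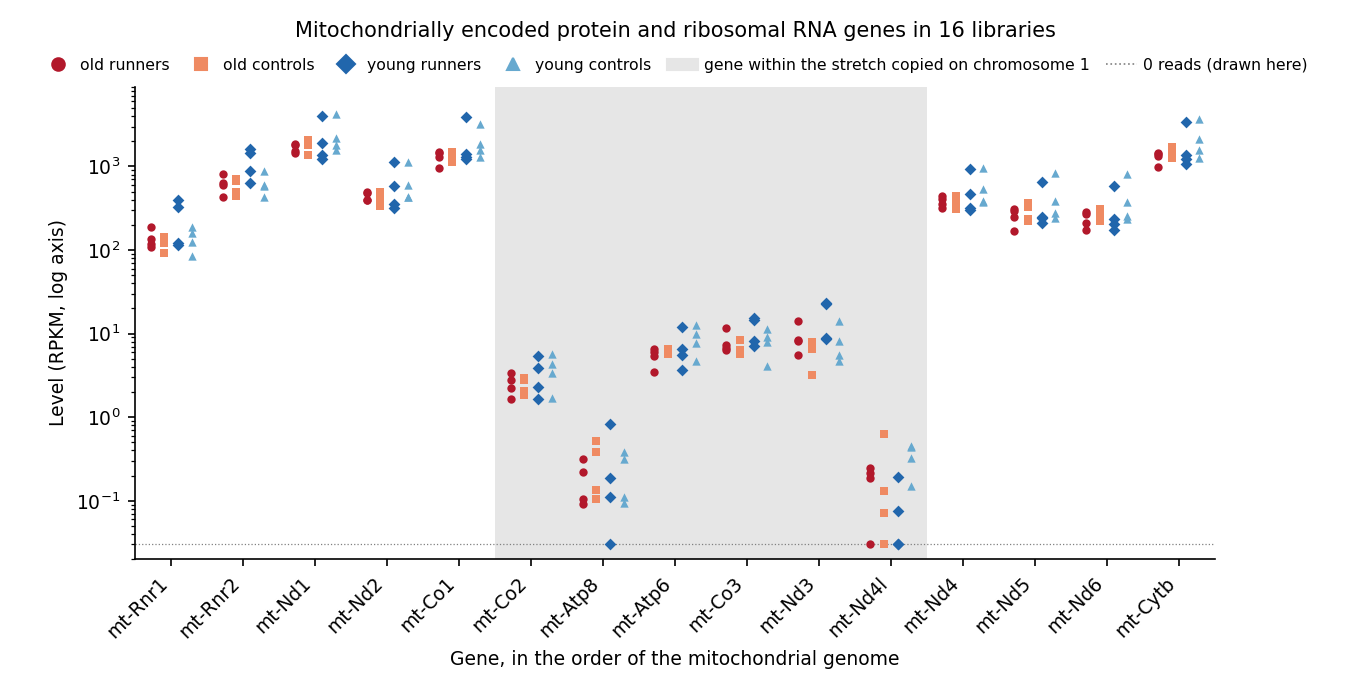
Level of the 13 protein and 2 ribosomal RNA genes in RPKM (log axis), in genome order, with 1 point per library and colours for the 4 groups. The 6 genes on grey lie within the stretch spanned by annotated copies on chromosome 1 and stand below their neighbours in all 16 libraries, while groups overlap within each gene.

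The 6 low protein members lay side by side between mt-Co1 and mt-Nd4. They were mt-Co2 and mt-Co3, core subunits of complex IV, mt-Atp8 and mt-Atp6, membrane subunits of ATP synthase (complex V), and mt-Nd3 and mt-Nd4l, subunits of complex I. They made up 26.3% of the length of the protein genes and held 0.201% of the reads of protein genes. mt-Nd3 had a median of 8.25 RPKM, mt-Co3 7.61, mt-Atp6 6.17 and mt-Co2 2.79 RPKM. mt-Nd4l had 0 to 8 reads per library and mt-Atp8 0 to 6, too few to compare groups. These genes sit in a stretch of the mitochondrial genome (chrM:6390-11042) that is spanned by annotated copies on the minus strand of chromosome 1 between bases 24611535 and 24616197. There GENCODE M21 annotates 7 pseudogenes, each aligned to its mitochondrial gene with 0 or 1 differing base. Of mt-Atp8, only the last 43 bases, which overlap mt-Atp6, lie within one of these annotated copies. Only annotated copies were aligned, so whether the bases between them are repeated too was not tested.

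Apart from mt-Atp8, which was mostly not aligned, the low level of these genes coincides with near-identity to the nuclear copy. Sequences of pairs are shown (mm10, 5′ to 3′ on the strand of the gene, capitals marking bases that differ within the pair). mt-Atp6 is identical to Gm10925 (chr1:24613974-24614651) over 678 of its 681 bases, and the first 61 bases of the pair are shown (chrM:7927-7987 and chr1:24614591-24614651).
mt-Atp6: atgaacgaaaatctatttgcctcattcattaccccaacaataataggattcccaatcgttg
Gm10925: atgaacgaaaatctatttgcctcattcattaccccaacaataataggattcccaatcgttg
mt-Nd3 differs from Gm28438 (chr1:24612775-24613119) at 1 of 345 aligned bases, T3C, counted from the first base of the gene (chrM:9459-9491 and chr1:24613087-24613119).
mt-Nd3: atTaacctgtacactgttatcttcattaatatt
Gm28438: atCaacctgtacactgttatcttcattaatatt
mt-Co1 is repeated only in its last 483 bases, in Gm29216 (chr1:24615706-24616197), with 1 difference, A1066T (chrM:6390-6423 and chr1:24616155-24616188).
mt-Co1: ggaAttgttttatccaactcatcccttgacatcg
Gm29216: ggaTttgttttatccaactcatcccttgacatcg
Apart from the end of mt-Co1 and the start of mt-Nd4, the high members matched no annotated pseudogene at 99% identity or more. The longest match of mt-Cytb, Gm11410 on chromosome 4, had 92.9% identity over 1142 bases (chrM:14445-14505 and chr4:80004289-80004349).
mt-Cytb: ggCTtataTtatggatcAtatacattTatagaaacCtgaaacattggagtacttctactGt
Gm11410: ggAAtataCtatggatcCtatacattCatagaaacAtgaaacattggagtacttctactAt
For mt-Nd6 it was Gm11408 on chromosome 4, with 93.6% identity over 519 bases (chrM:13782-13842 and chr4:80003626-80003686).
mt-Nd6: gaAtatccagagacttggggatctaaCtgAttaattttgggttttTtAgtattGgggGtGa
Gm11408: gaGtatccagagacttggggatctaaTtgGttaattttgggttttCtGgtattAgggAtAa

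Reads of the identical pairs mt-Atp6, mt-Co3 and mt-Co2 were split in similar numbers. mt-Atp6 had 73, 251, 221 and 206 reads in old runners and 181, 221, 160 and 150 in old controls, and Gm10925 had 77, 325, 241 and 247 and 222, 251, 203 and 181 in the same libraries. In young runners mt-Atp6 had 293, 132, 200 and 172 reads and in young controls 142, 444, 408 and 280, and Gm10925 had 372, 162, 227 and 226 and 176, 546, 476 and 298. The copy was ahead in 16 of 16 libraries, at a ratio of gene to copy between 0.761 and 0.948. mt-Co3 stood at 0.700 to 0.939 of its copy Gm28437 (chr1:24613189-24613971), and mt-Co2 at 0.723 to 1.10 of Gm28661 (chr1:24614885-24615565). mt-Nd4l, also identical to its copy Gm10222 over 294 aligned bases, had 47 reads in all against 34, with 0 against 5 in Y1ex and 7 against 0 in Oc4. mt-Nd3 had 12.3 to 43.7 times the reads of Gm28438, 2508 against 140 in all. mt-Nd4 shares its first 876 of 1378 bases with Gm28439 (chr1:24611535-24612410) and had 655 to 1498 times the reads of that copy across libraries. How reads that align equally well to both places were counted is not given in the sources used here, so its part in the low counts was not tested and the levels of these 6 genes are uncertain. Another 8 copies with 90.7% to 97.6% identity, 6 of them listed, had at most 123 reads in a library, the most for Gm13340 on chromosome 2, a copy of mt-Co1. Gm13339 and Gm13341, copies of mt-Nd2 and mt-Co2 on chromosome 2, had at most 28 and 27.

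**Figure D2:**
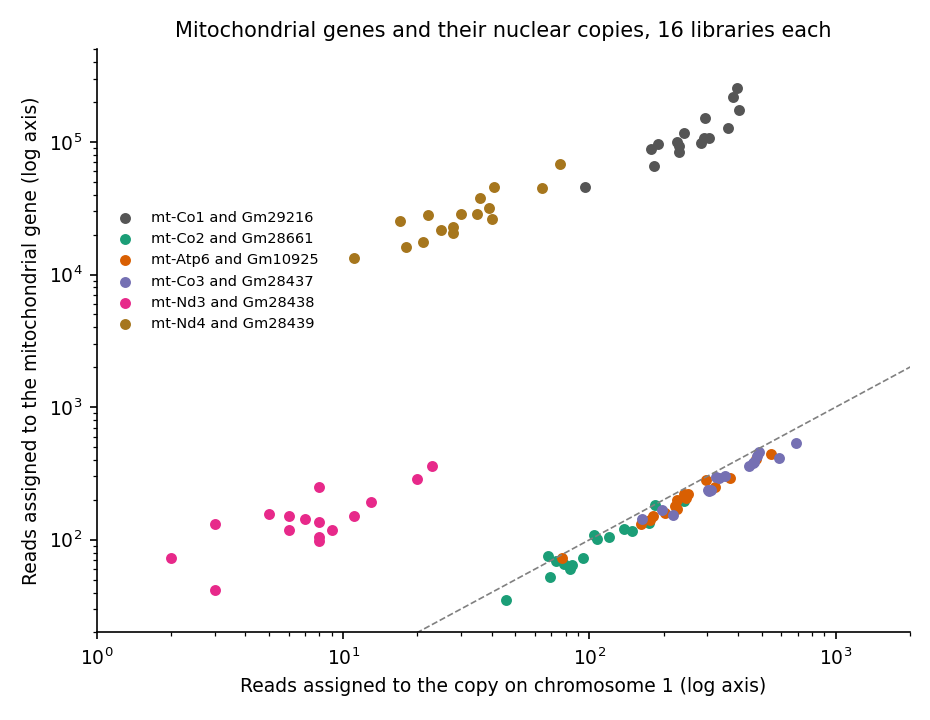
Reads assigned to the mitochondrial gene (vertical, log axis) against reads assigned to its copy on chromosome 1 (horizontal, log axis), 16 libraries per pair, with a dashed line where both are equal. mt-Co2, mt-Atp6 and mt-Co3 lie near that line, mt-Nd3 lies above it, and mt-Co1 and mt-Nd4, copied only in part, lie far above it.

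The order of levels depends on how the copied bases are treated. Divided by the 1062 bases of mt-Co1 outside the repeated stretch in place of all 1545, its median was 2090.1 RPKM, and it stood above mt-Nd1 in 15 of 16 libraries. The same step gave mt-Nd4, with 502 bases outside, a median of 1074 RPKM, against 391 RPKM over its whole length. These values assume that no read of the shared bases was counted, which was not tested.

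Transfer RNA genes held 2660 reads in all 16 libraries together, 0.0363% of mitochondrial reads. Of these reads 91.7% fell in the 8 genes on the minus strand, all of which were listed. Of the 14 genes on the plus strand only 6 were listed, and none of these had more than 24 reads in a library. The minus-strand genes lie opposite the strand of the abundant messenger RNAs or beside them, and reads without a known strand do not tell the transfer RNA from a precursor or from the opposite strand. The 5 with the most reads are shown (GENCODE M21, mm10, each on its own minus strand, 5′ to 3′, with the anticodon in capitals as found from a 7-base loop closed by a 5-pair stem). They carry proline (mt-Tp, chrM:15356-15422), glutamate (mt-Te, chrM:14071-14139), cysteine (mt-Tc, chrM:5192-5257), asparagine (mt-Tn, chrM:5089-5159) and glutamine (mt-Tq, chrM:3772-3842).
mt-Tp: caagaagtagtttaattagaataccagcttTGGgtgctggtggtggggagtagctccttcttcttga
mt-Te: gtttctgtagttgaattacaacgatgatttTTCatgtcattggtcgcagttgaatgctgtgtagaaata
mt-Tc: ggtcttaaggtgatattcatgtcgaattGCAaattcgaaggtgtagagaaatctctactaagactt
mt-Tn: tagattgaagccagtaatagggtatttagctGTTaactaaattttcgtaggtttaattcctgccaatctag
mt-Tq: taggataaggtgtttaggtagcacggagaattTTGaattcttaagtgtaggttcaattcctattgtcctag
mt-Tp, which lies next to the control region, led with 1133 reads, followed by mt-Te with 505, mt-Tc with 247, mt-Tn with 195 and mt-Tq with 169. mt-Tp had 35, 93, 55 and 64 reads in old runners and 52, 57, 55 and 51 in old controls, and 98, 48, 65 and 45 in young runners and 45, 175, 98 and 97 in young controls. Its groups overlapped at both ages, and Yc5, with 175 reads, was the highest library. mt-Te ranged from 5 reads in Y2ex to 136 in Yc5.

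The mitochondrial share of all assigned reads lay between 0.639% and 1.07% in 14 of 16 libraries. It was 0.639, 0.859, 0.730 and 0.885% in old runners and 0.802, 0.938, 0.828 and 0.666% in old controls. It was 2.07, 0.705, 1.005 and 0.729% in young runners and 0.728, 1.94, 1.07 and 0.865% in young controls. Y1ex and Yc5 stood apart from the other libraries, one a runner and one a control, and the young groups overlapped. The group means were 0.778 ± 0.115% in old runners, 0.809 ± 0.112% in old controls, 1.13 ± 0.643% in young runners and 1.15 ± 0.544% in young controls (SD, n = 4 each). Without Y1ex and Yc5 the young means were 0.813% in runners and 0.889% in controls (n = 3 each). Counting error was far smaller, at most 0.00466 percentage points to either side (95% Wilson interval). Of the 9 high members, 6 had their highest RPM in Yc5 and 3 in Y1ex.

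**Figure D3:**
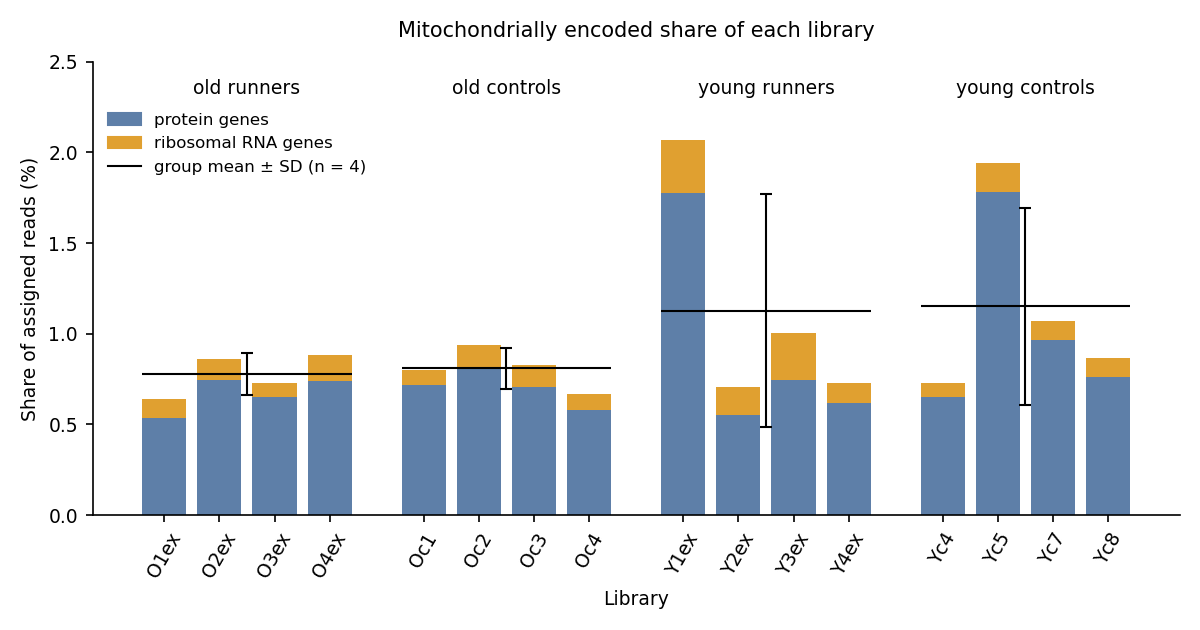
Share of assigned reads (%) from mitochondrial protein genes (blue) and ribosomal RNA genes (yellow) in each library, with the group mean and SD (n = 4) in black. Y1ex and Yc5 reach 2.07% and 1.94%, and the other 14 libraries lie between 0.639% and 1.07%.

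The first comparison asked whether running changed these transcripts at 22 months, and no member passed the test. Of 27 members in that table, 12 reached 1 above the floor of the log2 values in at least 4 libraries and were tested. limma called 0 of 12 (Benjamini-Hochberg over all genes, threshold 0.05), against 0.128% of all 9379 genes tested. At an unadjusted p under 0.05 the count was 0 of 12, against 1628 of all 9379, and voom on the recovered reads also called 0. The groups of 0 of 12 members were free of overlap, against 10.2% of all genes. The median difference of the 12 was 0.08, against 0.03 over all genes. mt-Rnr1 had the largest, with 113, 129, 104 and 182 RPM in old runners and 136, 121, 115 and 87.4 RPM in old controls. Its difference was 0.28 (95% CI -0.18 to 0.73, adjusted p = 0.522 by limma), and only O4ex stood above every control. mt-Nd2 differed by 0.21 (-0.16 to 0.58, adjusted p = 0.544 by limma) and mt-Rnr2 by 0.20 (-0.31 to 0.71, adjusted p = 0.700 by limma). Across the 12 members the intervals of the differences lay within -0.54 and 0.73.

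The same question at 4 months also gave 0 called members, of 14 tested among 29, against 0.762% of all 10624 genes. voom on the recovered reads called 0 of 14 too. At an unadjusted p under 0.05 there was 1 member of 14, mt-Rnr2, against 1844 of all 10624 genes. No member's groups were apart on the deposited values, against 11.5% of all genes. The median difference was -0.11, against 0.01 over all genes. mt-Rnr2 had 2565, 1406, 2292 and 1016 RPM in young runners and 677, 1405, 924 and 938 RPM in young controls. Y1ex and Y3ex stood well above every control, Y2ex was level with Yc5, and Y4ex lay within the controls. Its difference was 0.91 (95% CI 0.19 to 1.64, unadjusted p = 0.0178, adjusted p = 0.197 by limma), and with weights per library it was 0.51. Without Y1ex and Yc5 it was 0.92 (adjusted p = 0.240 by limma, with a range of 0.142 to 0.359 over its alternatives). mt-Rnr1 had 384, 111, 317 and 116 RPM in young runners and 81.4, 182, 152 and 118 RPM in young controls. Its difference of 0.70 (-0.23 to 1.64, adjusted p = 0.415 by limma) rested on Y1ex and Y3ex, since Y2ex and Y4ex lay within the controls, and with weights per library it was 0.07.

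Among the protein members in young runners, mt-Nd6 had the lowest difference, -0.40 (95% CI -1.37 to 0.57, adjusted p = 0.666 by limma). It had 305, 89.0, 121 and 105 RPM in young runners and 121, 427, 197 and 134 RPM in young controls. In RPM Y1ex exceeded 3 of 4 controls, Y3ex was level with Yc4, and Y2ex and Y4ex lay below every control. On the deposited values, which are scaled otherwise, Y3ex lay above Yc4 and Yc8. Without Yc5 the difference was -0.02 and without Y1ex -0.77. mt-Co1 had 6035, 1883, 2202 and 2031 RPM in young runners and 2012, 5001, 2850.2 and 2418 RPM in young controls, and the groups overlapped almost wholly. mt-Nd3, whose level is uncertain for the reason above, had 285, 157, 357 and 143 reads in young runners and 73, 249, 118 and 151 in young controls. Its difference was 0.55 (-0.09 to 1.20, adjusted p = 0.355 by limma), with Y1ex and Y3ex above every control. The intervals of the 7 protein members with high reads lay within -1.37 and 0.83.

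**Figure D4:**
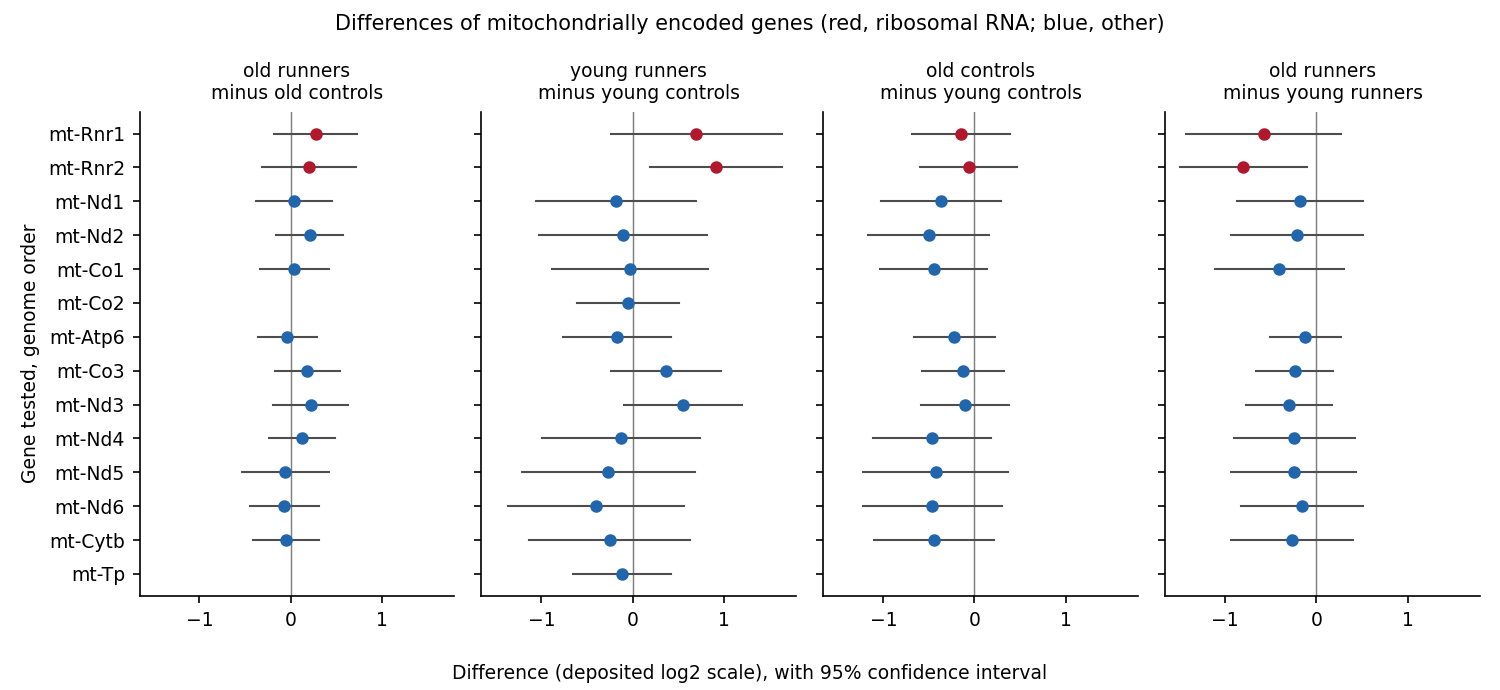
Difference of each tested member on the deposited log2 scale, with its 95% confidence interval from limma, in the 4 comparisons. The interval of mt-Rnr2 lies above 0 in young runners minus young controls and below 0 in old runners minus young runners, and every other interval spans 0.

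As a share of mitochondrial reads, ribosomal RNA separated the young groups. Both ribosomal RNAs together took 14.2, 21.5, 26.0 and 15.5% of mitochondrial reads in young runners and 10.4, 8.18, 10.0 and 12.2% in young controls. The lowest runner, Y1ex, lay above the highest control, Yc8. Yc5 was the lowest control, and Y1ex and Yc5 had the highest mitochondrial shares of assigned reads (2.07% and 1.94%). In old runners the share was 16.5, 13.2, 10.9 and 16.5% and in old controls 10.3, 12.7, 14.8 and 13.03%, and these groups overlapped. Means were 19.3 ± 5.45% in young runners and 10.2 ± 1.65% in young controls (SD, n = 4 each). The shares are sums over members chosen with results known and are a description, with no test. Of the 9 high members, 5 had non-overlapping shares in the young groups: mt-Rnr1 and mt-Rnr2 were higher in runners, and mt-Nd1, mt-Nd6 and mt-Cytb lower. Over all genes tested, 11.5% had groups apart on the deposited values in this comparison, a scale other than the share of mitochondrial reads, for which no rate over all genes was computed. Summed fibro-adipogenic, endothelial and smooth muscle and pericyte markers separated the same young groups. limma called 3 of 5 tested fibro-adipogenic markers higher in young runners, against 0.762% of all genes. It called 0 of 5 endothelial and 0 of 2 smooth muscle and pericyte markers. In old runners it called 0 of 4 fibro-adipogenic markers, and 3 had an unadjusted p under 0.05, against 1628 of all 9379 genes. The part of these cells was not tested. mt-Nd1 took 17.9 ± 0.737% of mitochondrial reads in young runners and 20.4 ± 0.697% in young controls, and mt-Cytb 17.8 ± 1.74% and 21.3 ± 1.13% (SD, n = 4). Shares of one total are not independent, since a higher share of one member lowers the others. In the old groups 1 of 9 members was apart, mt-Nd2, at 5.96 ± 0.368% in runners and 5.33 ± 0.278% in controls. On the deposited values, again another scale, 10.2% of all genes were apart. The ratio of mt-Rnr2 to mt-Rnr1 per length was 3.08 to 7.67 across libraries, and its groups overlapped. Between old and young runners the shares of 2 of 9 members were apart, mt-Nd1 and mt-Nd4, beside 3.38% of all genes on the deposited values.

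**Figure D5:**
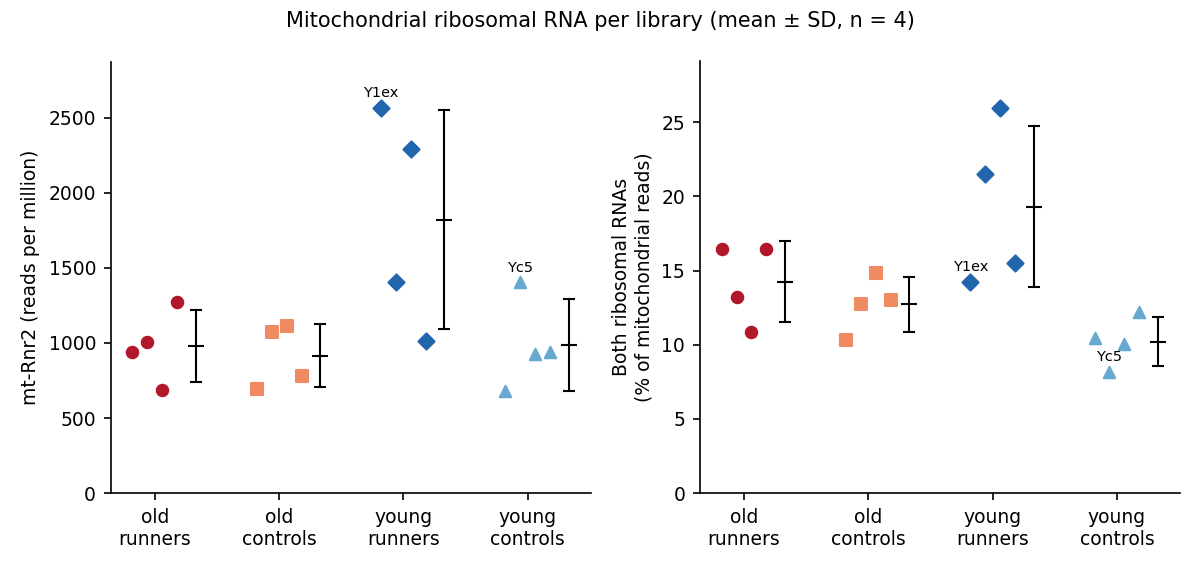
Level of mt-Rnr2 in RPM (left) and both ribosomal RNAs as a share of mitochondrial reads in % (right), 1 point per library, with mean and SD (n = 4) in black. Y1ex is the highest young runner on the left and the lowest on the right, and on the right all 4 young runners stand above the 4 young controls.

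In both comparisons of the ages every tested member had a difference below 0 without weights, and none passed. In old controls minus young controls limma called 0 of 12, against 0.112% of all 9831 genes, with 0 at an unadjusted p under 0.05 (1099 of all genes) and 0 by voom. The groups of no member were apart, against 7.0% of all genes. The 12 differences ran from -0.50 to -0.07 with a median of -0.40, against -0.01 over all genes. mt-Nd2 had the lowest, -0.50 (95% CI -1.17 to 0.16, adjusted p = 0.559 by limma). It had 448, 514, 409.6 and 354 RPM in old controls and 445, 1178, 625 and 445 RPM in young controls, with Yc5 above all others. mt-Nd4 differed by -0.47 (-1.11 to 0.18, adjusted p = 0.580 by limma). mt-Co1 had 2044, 2273, 2302 and 1745 RPM in old controls and 2012, 5001, 2850.2 and 2418 RPM in young controls and differed by -0.45 (-1.04 to 0.14, adjusted p = 0.557 by limma). Without Yc5 the median of the 12 was -0.07, and 3 differences were above 0.

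In old runners minus young runners 0 of 12 members were called, against 0.0213% of all 9387 genes, and voom called 0. No groups were apart, against 3.38% of all genes, and 1 member, mt-Rnr2, had an unadjusted p under 0.05 (461 of all genes). The median was -0.25, against 0.00 over all genes, and all 12 differences were below 0. mt-Rnr2 had 939.8, 1007, 689 and 1273 RPM in old runners and 2565, 1406, 2292 and 1016 RPM in young runners. In RPM O4ex lay above Y4ex and O2ex was nearly level with it. On the deposited values, which are scaled otherwise, O1ex and O2ex lay above Y4ex too. Its difference was -0.80 (95% CI -1.501 to -0.11, unadjusted p = 0.0276, adjusted p = 0.982 by limma), and -0.35 with weights per library. mt-Rnr1 differed by -0.58 (-1.43 to 0.27, adjusted p = 0.994 by limma) and mt-Co1 by -0.41 (-1.11 to 0.30). With weights per library mt-Rnr1 stood at 0.022, and 9 of the 12 members had a difference above 0. Without Y1ex the median was 0.05, with 7 of 12 differences above 0 and 5 below. The comparisons of the ages share libraries with those of running, so their values are not independent.

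Whether running acted differently at the 2 ages was tested as the effect in old minus the effect in young mice. Of 14 members 0 were called and 0 had an unadjusted p under 0.05, against 0% called and 721 genes at that p among all 10851. voom called 0 as well. mt-Rnr2 differed by -0.71 (95% CI -1.62 to 0.20, adjusted p = 0.812 by limma) and mt-Rnr1 by -0.43 (-1.51 to 0.66, adjusted p = 0.935 by limma), and both intervals spanned 0. With weights per library mt-Rnr1 stood at 0.36. The median of the 14 was 0.13, against 0.04 over all genes.

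Nuclear genes that serve the mitochondrial genome were read beside its own genes. A list of 41 genes of mitochondrial transcription, RNA processing, translation and DNA maintenance had 36 or 37 members tested per comparison, and limma called 0 in all 5. With running in old mice 3 of 36 had an unadjusted p under 0.05, against 1628 of all 9379 genes. In young mice it was 4 of 37, against 1844 of all 10624. Mterf3, a member of the mitochondrial transcription termination factor family, had the smallest p with running at both ages. Its deposited log2 value averaged 10.64 in old runners and 11.13 in old controls, a difference of -0.50 (95% CI -0.84 to -0.15, adjusted p = 0.161 by limma). In young runners it averaged 10.56 and in young controls 11.20 (difference -0.64, -0.98 to -0.30, adjusted p = 0.0783 by limma). Its groups were apart at both ages, as were those of 10.2% of all genes in old and 11.5% in young mice. Next were Mgme1, a mitochondrial DNA exonuclease, in old runners (0.36, adjusted p = 0.245 by limma) and Fastkd2, an RNA-binding protein of mitochondrial ribosome assembly, in young runners (-0.46, adjusted p = 0.204 by limma). The young groups of Fastkd2 were apart too. With age, Nsun4 and Ptcd2 were next in controls (0.41 and 0.36, adjusted p = 0.414 and 0.452 by limma). Mgme1 and Angel2 had the smallest p in runners (0.36 and 0.24, adjusted p = 0.982 for both by limma). For the difference between ages in the effect of running they were Polg2 and Angel2 (-0.54 and 0.32, adjusted p = 0.810 and 0.818 by limma).

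The nuclear partners of the same complexes gave 0 calls in the 5 comparisons by limma, over 36 genes of complex I, 9 of complex III, 12 of complex IV and 17 of complex V tested. In old runners minus old controls the medians were -0.04, -0.16, -0.19 and -0.13 for complexes I, III, IV and V, with 0, 1, 3 and 1 genes at an unadjusted p under 0.05, against 1628 of all 9379. In young runners minus young controls they were -0.01, -0.13, -0.17 and -0.21, with 2, 1, 1 and 3 such genes, against 1844 of all 10624. In old controls minus young controls they were 0.06, 0.11, -0.02 and -0.02.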

How the data were processed

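RNA of 16 myofiber libraries was reverse transcribed with the SMART-Seq v4 kit and made into libraries with the Nugen Ovation Ultralow System, per the labels' protocols, which name no strand selection. The submitters' processing notes list Trim Galore, STAR, featureCounts, Subread, DESeq2 and mm10. Versions, gene annotation and the treatment of reads aligning to several places are not given in the sources used here. As deposited by the authors, values are on a log2 scale and have the form of DESeq2's variance-stabilising transformation, in 4 tables of 1 pair of groups each. Genes without reads sit at a floor (6.73 to 7.69), near which differences are compressed. Inverting that form gave whole reads for 100% of values within 0.02 reads, and a library's reads were equal in every table holding it. No 2 libraries of a group agreed within sampling noise (chi-square per degree of freedom at least 79.2).

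Each pair was tested inside its own table. The tool was limma 3.58.1 under R 4.3.3 (lmFit, eBayes with trend, 2-sided), on genes lying 1 or more over the floor in 4 or more libraries, with Benjamini-Hochberg adjustment over all genes and a threshold of 0.05. The effect of running in old minus that in young mice was a contrast over both exercise tables. The procedure was tested on simulated data. RPM and RPKM were computed from the recovered reads, with gene lengths of GENCODE M21. Copies were found with BLAST 2.17.0 against annotated transcripts (pseudogenes, at least 200 aligned bases and 90% identity). Plots were drawn with matplotlib 3.10.9 in Python 3.11.15.

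Runner columns O1ex to O3ex and Y1ex to Y3ex match sample titles, and the other 10 columns were matched to groups only. All protein and ribosomal RNA members, the 5 transfer RNA genes with most reads and, of the list of mitochondrial genome expression, the 2 genes with the smallest p were named. The members and lists were chosen with earlier results of these data known. Alternatives were other filters, scalings and variance models, voom on the recovered reads, a block for replicate numbers, and leaving out libraries 1 at a time. The removal of Y1ex and Yc5 together was added after the data were seen. Counting intervals cover counting error only, since without molecular identifiers PCR copies of 1 molecule count as several reads.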

Additional observations from a re-analysis of the deposited data

Results flagged for a closer look

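Of 52 tests for a library far from the others, each of 1 quantity in 1 of the 4 groups, 4 flagged one. Chance alone flags about 1 test in 20, but the quantities come from the same libraries. The tests are therefore not independent, and the count cannot be judged against that rate. All 4 concern Y1ex among the young runners, in protein genes with high reads. Y1ex had 6035 RPM of mt-Co1, against 1883 to 2202 RPM in the other young runners. It had 1205 RPM of mt-Nd5, against 383 to 452 RPM. It had 305 RPM of mt-Nd6, against 89.0 to 121 RPM, and 3895 RPM of mt-Cytb, against 1232 to 1563 RPM. Y1ex also held the highest sum of fibro-adipogenic progenitor markers, 262 RPM, and of endothelial markers, 104 RPM, of all 16 libraries. Yc5, the other library with a high mitochondrial share, had 12.5 RPM and 19.8 RPM of the same lists. The part of either in the mitochondrial share was not tested.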

How the results depend on the processing

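The count of called members was 0 in the 5 comparisons and under all 99 alternatives run. The group means of the mitochondrial share moved by less than 1 SD as a percent of nuclear reads and without the 2 ribosomal RNA genes. The second step came close to 1 SD in the old groups, where protein genes alone averaged 0.667% in runners and 0.705% in controls. In the young groups they averaged 0.922% in runners and 1.04% in controls, and there Y1ex and Yc5 widen the SD. Leaving out 1 of 4 libraries cannot move a mean by 1 SD, so for that step only the ranges are given. They were 0.743% to 0.825% in old runners and 0.765% to 0.856% in old controls. In young runners the range was 0.813% to 1.27% and in young controls 0.889% to 1.29%. Of 15 differences printed for single members, 2 changed direction: with weights per library, mt-Rnr1 was at 0.022 (against -0.58) in old runners minus young runners and at 0.36 (against -0.43) for the effect of running in old minus young mice, and the cause was not tested. Over all members tested, 91 of 1257 recomputed differences had the opposite sign, none of a called difference. Scaling to nuclear reads shifts all differences by -0.11 in old runners minus old controls. The median difference of the 12 members there was 0.08, so the direction of the small differences depends on the scaling. The shift was -0.08 in young runners minus young controls, where the median was -0.11, and -0.03 in both comparisons of the ages.

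Calls over all genes moved more, in the order of running in old, running in young, age in controls, age in runners and the difference in the effect of running: 12, 81, 11, 2 and 0 genes, against 688, 1394, 461, 7 and 11 with weights per library and 3, 13, 3, 2 and 0 by voom. Leaving out 1 library gave 1 to 295, 0 to 181, 3 to 52, 0 to 3 and 0 to 5 calls, the most without Oc1, Yc4, Yc4, O1ex and Yc4. Replicate numbers did not pair the libraries: correlations of same-numbered deviations were -0.40 to 0.12, and no library was closest to its own number. With the replicate block 0 members and 0 genes were called in old runners minus old controls and in old runners minus young runners. No paired analysis was possible for the other comparisons because their columns share fewer than 2 numbers. mt-Atp8, mt-Nd4l and the transfer RNA genes other than mt-Tp had few reads and stayed under the filter on low values in the 5 comparisons. mt-Co2 and mt-Tp passed it only in young runners minus young controls and in the difference in the effect of running. Without that filter 27 to 29 members were tested and 0 called.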

Other observations

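The levels of 2 long noncoding RNAs kept in the nucleus, chosen after their values were seen, are given without a test. Malat1 averaged 124 ± 80.1 RPM in old runners and 343 ± 110 RPM in old controls (SD, n = 4 each), and the old groups overlapped. It averaged 181 ± 99.9 RPM in young runners and 808 ± 292 RPM in young controls (SD, n = 4 each), with 69.4 to 311 RPM in the runners and 524 to 1092 RPM in the controls. Neat1 averaged 99.2 ± 89.8 RPM in old runners and 187 ± 91.9 RPM in old controls, and 196 ± 148 RPM in young runners and 692 ± 354 RPM in young controls (SD, n = 4 each). The young groups did not overlap for either RNA, and the old groups overlapped for Neat1 too. On the deposited values, a scale other than RPM, 11.5% of all genes tested had young groups that did not overlap.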
